A study of Mus musculus with 27 samples.

Results

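Revival and fetal-like epithelial genes are described here in mouse intestine after whole-animal irradiation, as a set of 9 named genes: Clu, Anxa1, Anxa3, S100a6, Cyr61, Ctgf, Mmp14, Il33 and Krt19. They were taken by symbol from a table of 55401 genes. The rule matched 7 of them directly, and Cyr61 and Ctgf, which stand in the table under their current symbols Ccn1 and Ccn2, were matched through their older symbols. The tissue, named only as intestine in the sample titles, came from male wild-type C57BL/6 mice 6 to 8 weeks old. Irradiated mice received gamma rays of 60Co at 72 R per min, and there were 3 libraries in each of 9 groups.

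The groups were control mice, mice killed 6 h after 6 Gy, mice killed 6 h, 24 h or 3 d after 15 Gy, mice given CBLB502 and killed at 24 h, mice given CBLB502 0.5 h before 15 Gy and killed at 24 h, and mice killed 24 h after 6 Gy with or without CBLB502. CBLB502 is a drug derived from bacterial flagellin that activates Toll-like receptor 5, given here at 0.2 mg/kg into the abdomen. The labels call the controls untreated, while the study's design text names a saline (PBS) control for CBLB502. That text describes 7 groups of 10 mice and does not list the groups at 24 h after 6 Gy. The labels do not tie libraries to individual animals. The tests below therefore reflect the spread between libraries, which may be technical.

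After injury the intestinal epithelium can be rebuilt by surviving cells that take up a transient state resembling the fetal gut. Clusterin, the secreted chaperone encoded by Clu, marks the rare damage-induced cells known as revival stem cells. Entry into that state is linked to YAP, a transcriptional co-activator that binds DNA through TEAD factors and induces Cyr61 and Ctgf, while annexins, S100 proteins and keratin 19 are among the genes that such cells express.

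Between 57.4 and 87.1 M counts were assigned in each library. Levels are given in CPM (counts of a gene per 1 M counts of the library) after TMM scaling, which corrects for differences in library make-up, as mean ± SD of 3 libraries. Differences are log2 fold changes ± SE from edgeR's quasi-likelihood test, with p-values adjusted by the Benjamini-Hochberg method over 11118 genes, and a gene is called changed at an adjusted p under 0.05. A gene was tested when its FPKM, the authors' value per length and depth, was at least 1 in at least 3 libraries. Of the 9 genes, 8 were tested. Ctgf reached that level in no library, and Anxa1 passed only through the 3 libraries of 15 Gy at 3 d. The 6 libraries at 24 h after 6 Gy stood apart: summed exocrine pancreas markers (16 genes) ran from 76.8 to 8335 CPM without CBLB502 and from 255 to 2655 CPM with it, against 5.20 to 8.38 CPM in control. Epithelial markers were abundant in control, with Epcam at 3717 ± 938 CPM and Vil1 at 4330 ± 658 CPM. Summed smooth muscle markers (9 genes) ran from 1.89 to 4.86 CPM in the same libraries.

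The intestine at 3 d after 15 Gy had the highest mean of the 9 groups for Clu, Anxa1, Anxa3, S100a6, Mmp14 and Krt19, the second highest for Cyr61 and Il33, and the third highest for Ctgf. For each of the 9 genes its 3 libraries all lay above the 3 control libraries. Among all genes tested, 20.8% lay above control in this way. Of the 8 genes tested, 7 were called higher than control at 3 d (Clu, Anxa1, Anxa3, Cyr61, Mmp14, Il33 and Krt19) and none lower, where 29.4% of all genes tested were called and 13.9% were called higher. The count of Anxa1 follows in part from the filter that it passed only through this group. The 9 genes and all gene lists used below were chosen with earlier results of these data known. The shares over all genes are therefore given beside them as description and do not test them. At 6 h after 15 Gy, 2 of 8 were called, both higher (Clu and Mmp14), where 29.0% of all genes were called and 12.2% were called higher. At 24 h edgeR called none of 8, where 4.94% of all genes were called. No gene of the 8 had an unadjusted p under 0.05 at 24 h, and neither DESeq2 nor limma called one. The median difference of the 8 genes from control was 0.07, -0.07 and 1.67 (log2) at 6 h, 24 h and 3 d, beside 0.02, 0.03 and 0.02 over all genes tested. The median at 3 d includes Anxa1, and without Anxa1 the middle value at 3 d was that of Cyr61, 1.31.

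**Figure D1:**
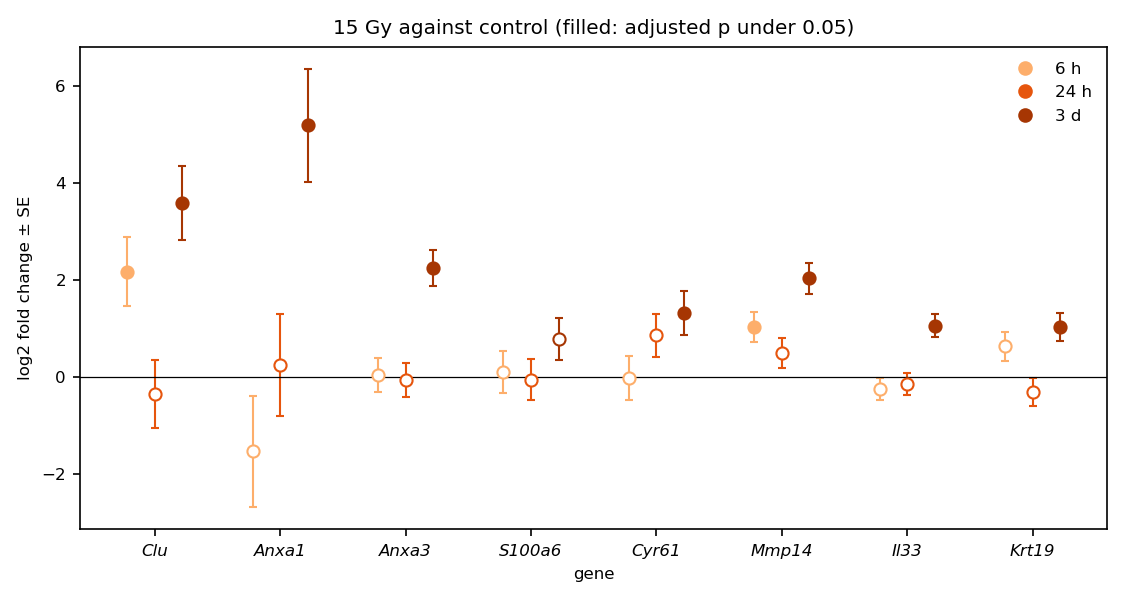
Log2 fold change (y axis, ± SE) of the 8 tested genes (x axis) at 6 h, 24 h and 3 d after 15 Gy against control, from edgeR with 3 libraries a group. Filled points have an adjusted p under 0.05. The values at 24 h lie between -0.35 and 0.85, and all 8 values at 3 d are above 0.

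Promoters are described for genes whose libraries at 3 d all lay above control, whether called or not. A match to the TEAD motif CATTCC is a letter pattern that can be set beside the YAP-linked genes. Sequences are printed only for genes with a match, and for Il33 only at its first start. Windows of 300 bases, from 250 before to 50 after the start, came from RefSeq (GRCm38.p6) and were there for 5 of the 9 genes (Anxa1, S100a6, Cyr61, Mmp14 and Il33). The capitals mark CATTCC or, for the other strand, GGAATG.
Anxa1, chr19:20390622-20390921, minus strand: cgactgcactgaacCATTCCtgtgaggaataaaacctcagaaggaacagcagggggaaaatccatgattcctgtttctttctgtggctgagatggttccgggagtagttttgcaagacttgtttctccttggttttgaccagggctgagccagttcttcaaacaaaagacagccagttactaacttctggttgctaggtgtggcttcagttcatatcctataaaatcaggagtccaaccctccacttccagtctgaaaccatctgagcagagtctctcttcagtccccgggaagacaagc
Cyr61, chr3:145649936-145650235, minus strand: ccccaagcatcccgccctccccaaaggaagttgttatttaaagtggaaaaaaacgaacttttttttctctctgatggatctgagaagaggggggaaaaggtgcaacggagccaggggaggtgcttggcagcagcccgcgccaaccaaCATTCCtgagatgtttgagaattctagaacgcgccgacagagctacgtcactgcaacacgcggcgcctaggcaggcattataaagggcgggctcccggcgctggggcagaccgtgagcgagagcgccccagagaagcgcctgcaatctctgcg
Il33, first start, chr19:29924863-29925162, plus strand: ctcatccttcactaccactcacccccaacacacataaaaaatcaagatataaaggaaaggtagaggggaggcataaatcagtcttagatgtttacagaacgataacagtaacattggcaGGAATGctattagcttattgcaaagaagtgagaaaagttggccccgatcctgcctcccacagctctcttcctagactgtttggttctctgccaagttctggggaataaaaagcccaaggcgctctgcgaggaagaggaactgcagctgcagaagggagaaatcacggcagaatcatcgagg
The match began at position -236 relative to the start in Anxa1, at -103 in Cyr61 and at -131 in Il33. A second Il33 start, chr19:29945540-29945839, held 1 match at -107. The windows of S100a6 and Mmp14 held none. On either strand, 14.7% of all 32851 windows of this length held CATTCC. The AP-1 motif TGANTCA was in none of these windows and in 7.81% of all windows. A match is a description of these letters and says nothing of binding.

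Clu lies at chr14:65968483-65981547 on the plus strand (GRCm38). It measured 6.38, 3.32 and 2.71 CPM in the 3 control libraries and 32.0, 46.2 and 70.1 CPM at 3 d after 15 Gy. The lowest library at 3 d was above the highest control library, and Clu rose 11.9-fold (log2 3.58 ± 0.76, adjusted p = 0.00127). At 6 h after 15 Gy the libraries held 5.34, 43.7 and 6.69 CPM. Only replicate 2 was far above control there, the groups overlapped, and the call (log2 2.17 ± 0.72, adjusted p = 0.0277) was lost without that library (log2 0.54, adjusted p = 0.555), as it was without control replicate 2 or 3 (log2 2.03 and 1.94), by limma and with the 2 groups fitted alone. After 6 Gy the 6 h libraries held 40.8, 14.9 and 8.55 CPM, all above control (log2 2.37 ± 0.72, adjusted p = 0.0172). One of those 3 was far higher than the others, and without it, replicate 1, the value was 1.51 and not called (adjusted p = 0.130). Without control replicate 2 or 3 it was 2.24 and 2.14, not called. At 24 h after 15 Gy Clu measured 3.88, 1.75 and 4.12 CPM, within the control range or below it (log2 -0.35 ± 0.70, adjusted p = 0.831). It was called lower at 24 h than at 6 h after 15 Gy (log2 -2.51 ± 0.73, adjusted p = 0.0111) and higher at 3 d than at 24 h (log2 3.93 ± 0.77, adjusted p = 0.000729). The fall from 6 h to 24 h again rested on replicate 2 of 6 h, without which its value was -0.89 and it was not called, and it was also not called without replicate 2 of 24 h (-2.21), by limma or with the groups fitted alone. In order of mean level, 15 Gy at 3 d (49.4 ± 19.3 CPM) was followed by 6 Gy at 6 h (21.4 ± 17.1) and 15 Gy at 6 h (18.6 ± 21.7), each overlapping the next.

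Annexins are calcium-dependent proteins that bind membrane phospholipids, and annexin A1 also acts as a secreted mediator that limits inflammation. Anxa1 (chr19:20373428-20390944, minus strand) had few counts outside 1 group: they were 18, 12 and 13 in control and 546, 575 and 773 at 3 d after 15 Gy. Scaled, these were 0.278, 0.161 and 0.194 CPM against 6.74, 6.50 and 9.83 CPM, a 36.3-fold rise (log2 5.18 ± 1.16, adjusted p = 0.00206). The group at 3 d lay above all other groups without overlap. The next highest means were 0.638 ± 0.411 CPM for 6 Gy with CBLB502 and 0.552 ± 0.263 CPM for 6 Gy at 24 h, groups that overlapped one another. At 6 h after 15 Gy the counts were 8, 8 and 0, below control in each library, and the difference was not called (log2 -1.54 ± 1.15, adjusted p = 0.334).

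Anxa3 (chr5:96793339-96845966, plus strand), which encodes another member of the annexin family, was also high at 3 d. Its libraries held 2.05, 2.86 and 1.65 CPM in control and 10.8, 8.69 and 11.6 CPM at 3 d, a 4.73-fold rise (log2 2.24 ± 0.36, adjusted p = 8.95e-05). At 6 h and 24 h the means were 2.24 ± 1.02 and 2.08 ± 0.458 CPM, beside 2.19 ± 0.617 CPM in control, and the libraries overlapped control. The group at 3 d did not overlap the next, CBLB502 alone at 24 h (4.38 ± 0.701 CPM). That group lay above control in all 3 libraries but was not called (log2 1.00 ± 0.35, adjusted p = 0.0961).

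S100a6 (chr3:90612882-90624181, plus strand) encodes a small calcium-binding protein of the S100 family. It was variable in control, at 69.4, 46.5 and 28.9 CPM, and tight at 3 d after 15 Gy, at 78.7, 76.7 and 93.4 CPM. The 3 libraries at 3 d lay above control, but the difference did not pass the test (log2 0.78 ± 0.43, adjusted p = 0.185). Limma on log2(FPKM + 1) called it (1.08, adjusted p = 0.0323). At 6 h after 6 Gy S100a6 measured 35.8, 11.3 and 10.9 CPM and was called lower than control (log2 -1.32 ± 0.44, adjusted p = 0.0266), although the highest of these libraries overlapped the control range. Without control replicate 1 or without replicate 2 or 3 of 6 Gy it was not called (log2 -0.96 to -1.05), nor with the groups fitted alone.

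Cyr61 and Ctgf encode secreted matricellular proteins that modify the matrix and cell adhesion, and both are common readouts of YAP and TEAD. Cyr61 (chr3:145646976-145649981, minus strand) measured 1.5, 2.72 and 0.507 CPM in control, 3.14, 3.14 and 2.25 CPM at 24 h after 15 Gy and 3.75, 3.95 and 4.04 CPM at 3 d. The libraries at 3 d were tight and above all control libraries, and the rise was 2.48-fold (log2 1.31 ± 0.45, adjusted p = 0.0335). That call was lost without control replicate 1 or 3 or without any 1 library at 3 d (adjusted p = 0.0593 to 0.125), without the 6 libraries of 6 Gy at 24 h (adjusted p = 0.0552), with no filter on low values (adjusted p = 0.0713) and with the 2 groups fitted alone. Cyr61 was highest in the group given CBLB502 before 15 Gy, at 3.29, 5.13 and 4.83 CPM, which overlapped 15 Gy at 3 d and lay above control (log2 1.49 ± 0.46, adjusted p = 0.0288). Without the 6 libraries of 6 Gy at 24 h this adjusted p was 0.0535, and it was not called with the groups fitted alone or without control replicate 1 or 3 or replicate 2 or 3 of its own group (log2 1.06 to 1.44). Cyr61 at 6 h after either dose was close to control, at 1.54 ± 0.314 CPM for 15 Gy and 1.63 ± 0.522 CPM for 6 Gy.

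Ctgf (chr10:24595442-24598683, plus strand) was below the filter and was not tested with it. Its counts were 11, 22 and 0 in control, 27, 31 and 84 at 3 d after 15 Gy, and 0 in all 3 libraries of 15 Gy at 6 h and of CBLB502 alone. The 3 d libraries lay above control, and a count of 0 at 15 Gy 6 h allows a level of up to 0.0135 CPM over the group, for counting error only. With no filter on low values, edgeR called Ctgf lower at 6 h after 15 Gy than in control (adjusted p = 0.0140) and than at 6 h after 6 Gy (adjusted p = 0.0141), and higher at 24 h than at 6 h after 15 Gy (adjusted p = 0.0105). Each of these sets a group of few counts against 1 at 0, and 1 control library was also at 0. Its rise at 3 d was not called in that fit (adjusted p = 0.345). The highest levels were 0.979 ± 0.256 CPM at 24 h after 6 Gy and 0.975 ± 0.216 CPM with CBLB502 added, and the fibroblast collagen gene Col3a1 measured 8.28 ± 2.12 and 10.7 ± 3.22 CPM in those groups against 0.447 ± 0.405 CPM in control. Its part in the Ctgf level was not tested.

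Mmp14 (chr14:54431612-54441265, plus strand) encodes MT1-MMP, a membrane-anchored collagenase that also activates other matrix metalloproteinases. It measured 3.24, 2.97 and 4.31 CPM in control, 6.62, 6.33 and 8.38 CPM at 6 h after 15 Gy, 2.91, 7.71 and 4.06 CPM at 24 h, and 14.1, 19.2 and 9.56 CPM at 3 d. It rose 2.03-fold at 6 h (log2 1.02 ± 0.31, adjusted p = 0.0187) and 4.08-fold at 3 d (log2 2.03 ± 0.32, adjusted p = 7.48e-05), with no overlap with control at either time, while the 24 h group overlapped control. Without replicate 1 or 2 of control or replicate 3 of 15 Gy at 6 h, the 6 h value was not called (adjusted p = 0.0587 to 0.0745), nor was it by limma. Mmp14 was also called higher than control in 6 Gy at 6 h, 6 Gy at 24 h, 6 Gy with CBLB502 and 15 Gy with CBLB502. Without replicate 3 of 6 Gy at 6 h the first of these was 0.76 (log2) and not called, nor was it by limma or with the groups fitted alone. Control had the lowest mean of the 9 groups.

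Il33 (chr19:29925114-29960718, plus strand) encodes interleukin 33, a nuclear cytokine that damaged barrier cells release as an alarm signal. It measured 34.3, 37.1 and 33.9 CPM in control and 67.1, 86.9 and 64.8 CPM at 3 d after 15 Gy, a 2.08-fold rise with no overlap (log2 1.05 ± 0.23, adjusted p = 0.00154). At 6 h after 15 Gy it measured 28.8, 31.3 and 27.8 CPM, below control in every library, but was not called (log2 -0.26 ± 0.23, adjusted p = 0.417). At 6 h after 6 Gy it measured 64.0, 106 and 86.6 CPM, above control in every library (log2 1.29 ± 0.23, adjusted p = 0.000233). That group had the highest mean of all 9 and overlapped 15 Gy at 3 d.

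Krt19 (chr11:100140810-100146120, minus strand) encodes an intermediate filament keratin of simple epithelium. Per length it was the most abundant of the 9 genes in control, at 116 ± 29.3 FPKM, ahead of S100a6 at 28.1 ± 11.7 and Il33 at 9.69 ± 0.542 FPKM. The other 6 genes were below 1 FPKM there. Krt19 measured 326, 192 and 292 CPM in control, 498, 402 and 349 CPM at 6 h after 15 Gy, 194, 198 and 260 CPM at 24 h, and 541, 511 and 591 CPM at 3 d. The 3 d group lay above all other groups and rose 2.03-fold over control (log2 1.02 ± 0.29, adjusted p = 0.0123), a call lost without control replicate 2 (adjusted p = 0.0681). At 6 h all 3 libraries lay above control without a call (log2 0.62 ± 0.29, adjusted p = 0.115). Krt19 fell from 6 h to 24 h after 15 Gy (log2 -0.94 ± 0.29, adjusted p = 0.0180), and the call was lost without replicate 1 of 6 h or without replicate 1 or 2 of 24 h (log2 -0.80 to -0.88).

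**Figure D2:**
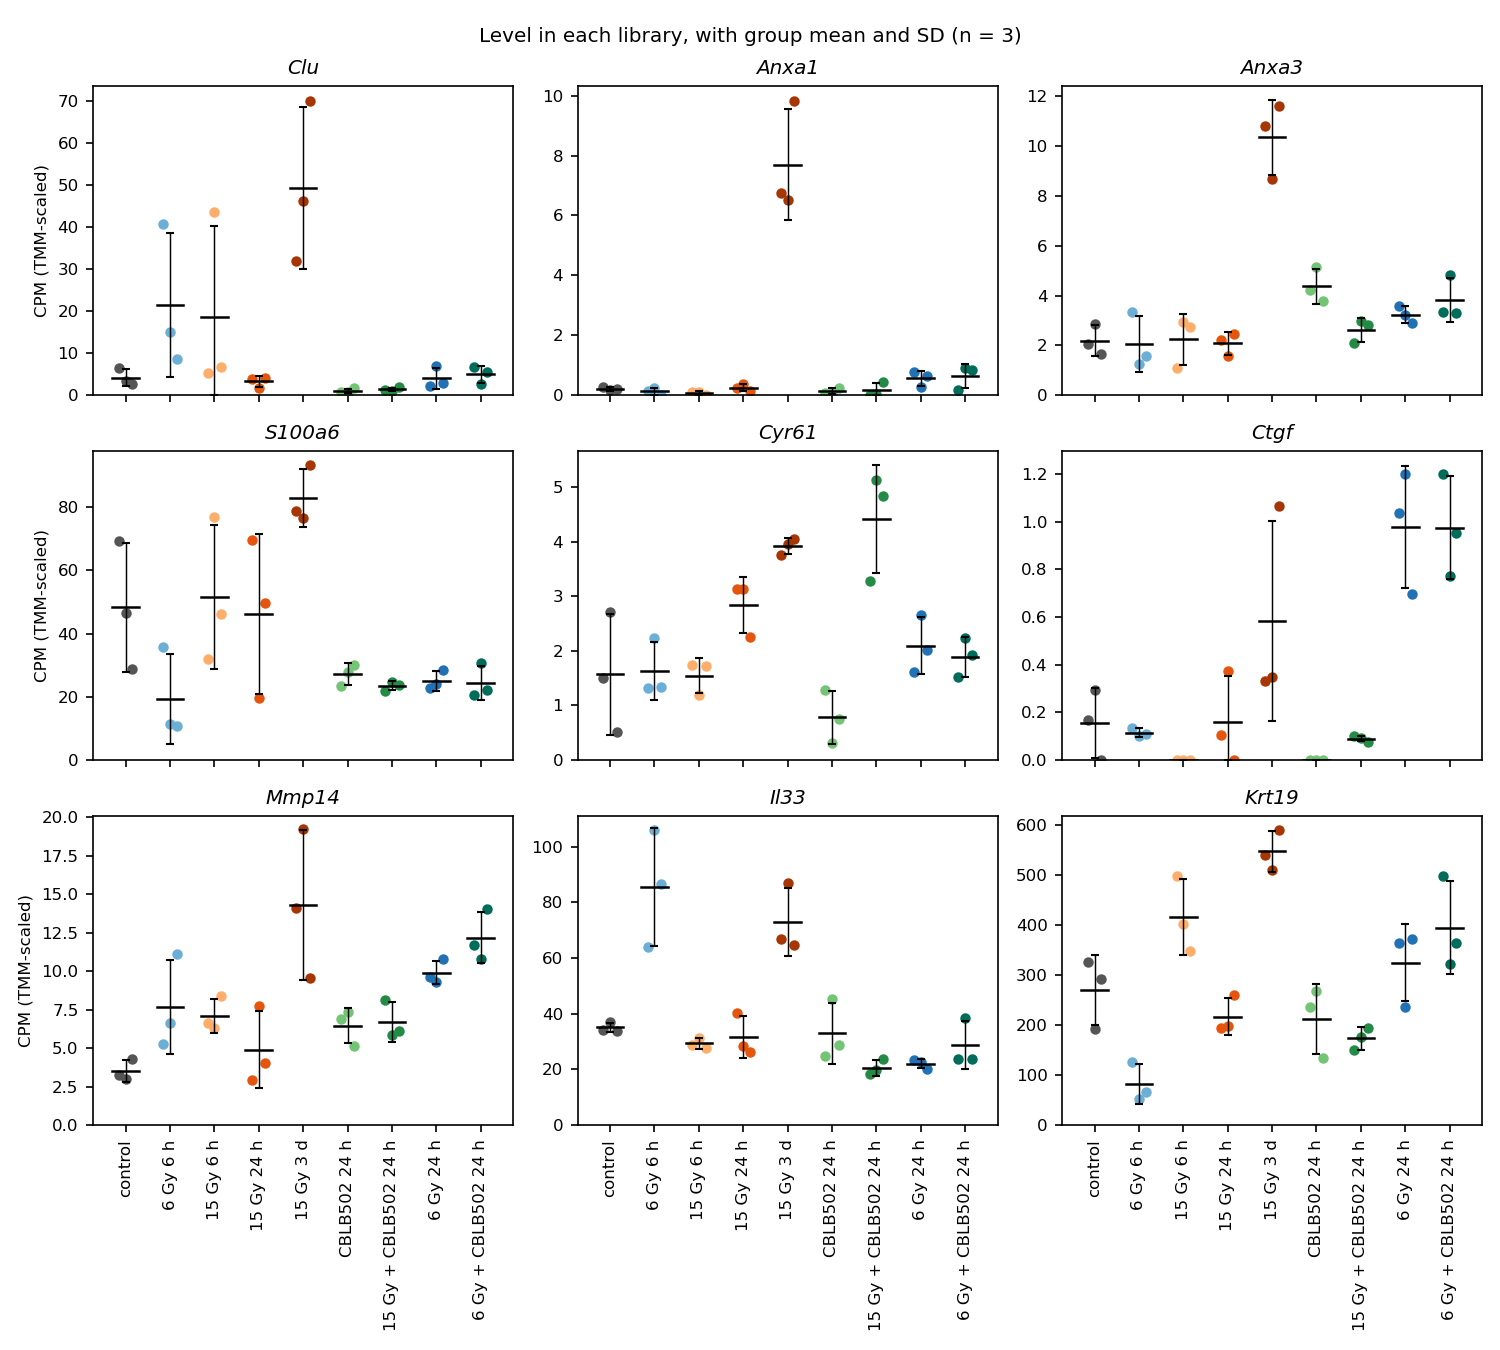
Level of each gene in every library (points, CPM on the y axis, TMM-scaled), with the mean (bar) and SD (whiskers, cut at 0) of the 3 libraries in each of the 9 groups on the x axis. At 3 d after 15 Gy the libraries of all 9 genes lie above those of control, and Cyr61, Ctgf and Il33 reach their highest means in other groups.

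Compared with 24 h, the intestine at 3 d after 15 Gy had 6 of 8 genes called higher (Clu, Anxa1, Anxa3, Mmp14, Il33 and Krt19) and none lower, where 25.3% of all genes were called and 11.2% were called higher. Anxa1 counts here in part because of the filter, which it passed only through the 3 d libraries. All libraries at 3 d lay above all at 24 h for 8 of 9 genes, with Ctgf the exception, beside 18.7% of all genes. Cyr61 was not called (log2 0.46 ± 0.45, adjusted p = 0.489), and Mmp14 was not with the 2 groups fitted alone. From 6 h to 24 h, 2 of 8 genes were called lower (Clu and Krt19) and none higher, where 32.2% of all genes were called and 13.5% were called lower. These comparisons share the 24 h libraries, and those with control share the control libraries.

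At 6 h the dose groups differed most in Krt19 and Il33, and in opposite directions. After 6 Gy, 5 of 8 genes were called against control (Clu, Mmp14 and Il33 higher, S100a6 and Krt19 lower), where 28.4% of all genes were called. Krt19 measured 127, 52.9 and 66.7 CPM after 6 Gy, below every control library (log2 -1.72 ± 0.30, adjusted p = 0.000183). In the direct test of 15 Gy against 6 Gy at 6 h, 3 of 8 genes were called, where 43.2% of all genes were called. Krt19 was higher after 15 Gy (log2 2.34 ± 0.31, adjusted p = 3.24e-06), as was S100a6 (log2 1.42 ± 0.44, adjusted p = 0.0118, not called without replicate 2 or 3 of 6 Gy or replicate 2 of 15 Gy, at 1.01 to 1.15, or with the groups fitted alone), and Il33 was lower (log2 -1.55 ± 0.23, adjusted p = 1.59e-05). Clu and Mmp14 did not pass the test (log2 -0.21 ± 0.68 and -0.11 ± 0.31). Other features of the tissue also differed between the dose groups, in both directions. Crypt stem markers (16 genes) summed to 108 to 131 CPM after 6 Gy, 63.2 to 80.4 CPM after 15 Gy and 68.3 to 83.2 CPM in control. Macrophage and neutrophil markers summed to 16.9 to 27.8, 5.02 to 14.7 and 7.92 to 12.5 CPM in that order, and endothelial markers to 4.97 to 10.4, 2.41 to 4.68 and 2.49 to 4.50 CPM. Enterocyte markers and Dbp were instead lower after 6 Gy than in both other groups. Summed enterocyte markers (20 genes, all tested) ran from 80406 to 90511 CPM after 6 Gy, from 187393 to 208090 CPM after 15 Gy and from 146409 to 176847 CPM in control. The clock gene Dbp, looked up after its values were seen, measured 1.27 to 6.17 CPM after 6 Gy, 31.7 to 94.6 CPM after 15 Gy and 85.5 to 94.3 CPM in control. The part of these in the difference between doses was not tested.

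**Figure D3:**
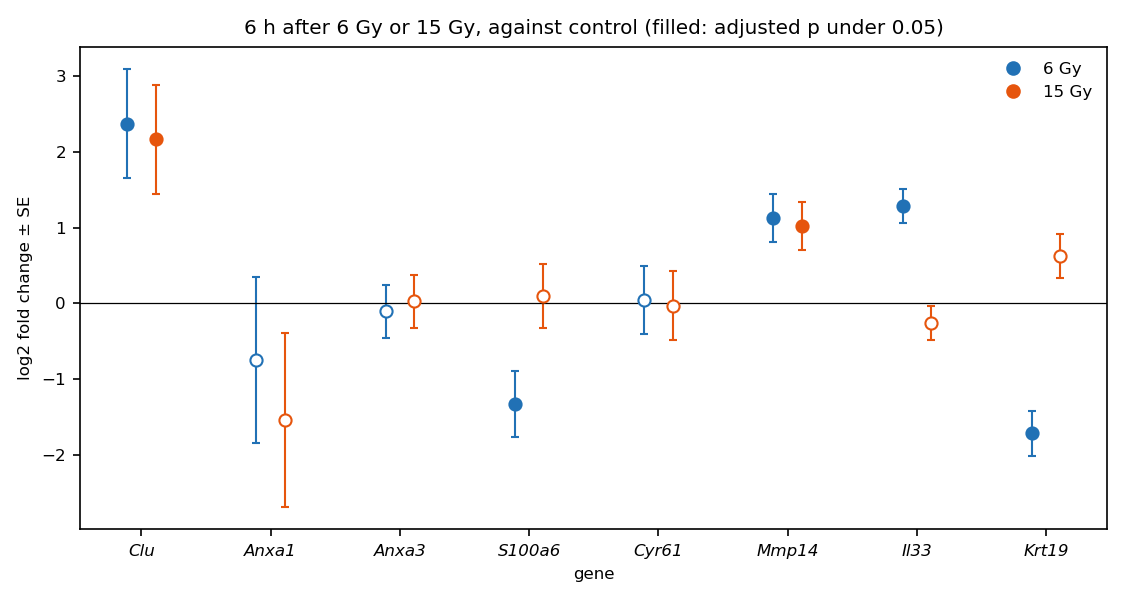
Log2 fold change against control (y axis, ± SE) of the 8 tested genes (x axis) at 6 h after 6 Gy and after 15 Gy, with filled points at an adjusted p under 0.05. Clu and Mmp14 are filled at both doses, while S100a6, Il33 and Krt19 are filled after 6 Gy only. The direct comparison of doses called the last 3 genes.

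For CBLB502 alone, edgeR called none of 8 genes against control, where 5.74% of all genes were called. At an unadjusted p under 0.05 there were 4 (Clu and Cyr61 lower, Anxa3 and Mmp14 higher), while DESeq2 called 1 and limma 0. The gene called by DESeq2 was Clu, at 0.732, 0.609 and 1.62 CPM, below every control library, as were 11.4% of all genes tested (edgeR log2 -2.07 ± 0.74, adjusted p = 0.102; DESeq2 adjusted p = 0.0263). With CBLB502 before 15 Gy, 3 of 8 genes were called against control (Cyr61 and Mmp14 higher, Il33 lower), where 16.9% of all genes were called. At an unadjusted p under 0.05 there were 6, with Clu, S100a6 and Krt19, each lower, besides those called. Clu, at 1.14, 1.04 and 1.82 CPM in that group, and S100a6 lay below every control library (adjusted p = 0.126 and 0.103). Il33 measured 18.3, 19.6 and 23.6 CPM there, below every control library (log2 -0.77 ± 0.23, adjusted p = 0.0231). In that group 16.2% of all genes tested lay below every control library. With no filter on low values none of Cyr61, Mmp14 and Il33 was called, and limma called neither Mmp14 nor Il33. Mmp14 (log2 0.93 ± 0.31, adjusted p = 0.0449) was not called without the 6 libraries of 6 Gy at 24 h or without any 1 library except control replicate 3, at 0.77 to 1.03, and Il33 not without replicate 1 or 2 of either group, at -0.70 to -0.79.

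Against 15 Gy alone at 24 h, edgeR called none of the 8 genes, nor any of all genes tested (0%). Of the 8 genes, 2 had an unadjusted p under 0.05 (S100a6 and Il33, both lower), and DESeq2 and limma called 0. Among all genes 867 had an unadjusted p under 0.05, DESeq2 called 63 and limma 0. Cyr61 lay above, and Il33 below, the libraries of 15 Gy alone in every library of the combined group, with differences of 0.63 ± 0.45 and -0.63 ± 0.23 (log2, adjusted p = 0.757 and 0.563). In this way 6.31% of all genes tested lay above and 5.76% below. The interaction, which sets the effect of CBLB502 with 15 Gy against its effect without, was called for none of the 8 genes by edgeR, DESeq2 or limma, where 0.225% of all genes were called. One gene, Cyr61, had an unadjusted p under 0.05 (log2 1.65 ± 0.64, adjusted p = 0.389).

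At 24 h after 6 Gy, 2 of 8 genes were called against control (Mmp14 higher, Il33 lower), where 33.0% of all genes were called. Mmp14 measured 9.63, 9.32 and 10.8 CPM there, and 11.7, 10.8 and 14 CPM with CBLB502, all above control (log2 1.5 ± 0.32 and 1.80 ± 0.32, adjusted p = 0.00145 and 0.000312). With CBLB502 only Mmp14 was called of 8, where 37.3% of all genes were called. Between these 2 groups edgeR called none of the 8 genes and 0% of all genes. None of the 8 had an unadjusted p under 0.05 and DESeq2 and limma called 0, while among all genes 303 had such a p, DESeq2 called 7 and limma 9. The call of Il33 (log2 -0.67 ± 0.23, adjusted p = 0.0287) was lost by limma, with no filter and without any 1 library except control replicate 3 (log2 -0.61 to -0.71). Both groups carry the pancreas markers and Col3a1 described above. Their summed smooth muscle markers ran from 3.98 to 120 CPM without CBLB502 and from 11.9 to 42.8 CPM with it, against 1.89 to 4.86 CPM in control. The same sum ran from 1.37 to 64.1 CPM at 24 h after 15 Gy. In the 2 groups of 6 Gy at 24 h, radiation and this tissue make-up cannot be told apart.

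Other genes of the fetal-like or injured epithelium came from a list of 30 that leaves out the 9. Like the 9, the list was chosen with earlier results of these data known. Of 25 tested, 16 were called higher and 1 lower at 3 d after 15 Gy, where 29.4% of all genes were called, and 8 were not called. Msln, Anxa8 and Anxa10, 3 of the 16, passed the filter only with the libraries at 3 d; of the other 22 genes 13 were called higher and 1 lower. At 6 h 2 were called higher and 1 lower, where 29.0% of all genes were called, and at 24 h 0 higher and 1 lower, where 4.94% were. The summed level of the list did not separate the groups, at 3959 to 5944 CPM at 3 d against 4029 to 5173 CPM in control. In control most of that sum came from Anxa2 (2008 ± 277 CPM), Emp1 (1212 ± 255 CPM) and S100a10 (633 ± 31.6 CPM). The median differences of the 25 were 1.67, 0.20 and 0.02 (log2) at 3 d, 6 h and 24 h. For the 22 that did not need the 3 d libraries to pass the filter, the median at 3 d was 1.41. The 3 with the smallest adjusted p at 3 d were Sox9, a transcription factor of crypt progenitors (15.6 ± 0.825 against 1.51 ± 0.603 CPM, adjusted p = 4.91e-05), Ccnd2, a D-type cyclin (139 ± 36.5 against 31.5 ± 5.34 CPM, adjusted p = 0.000225), and Ly6d, a surface protein of the Ly6 family (86.5 ± 86.0 against 1.86 ± 1.12 CPM, adjusted p = 0.000316). Ly6a, whose product Sca-1 marks fetal-like crypt cells, fell at 24 h from 5.09 ± 1.89 to 0.819 ± 0.178 CPM (adjusted p = 0.00755) and stood at 33.0 ± 7.52 CPM at 3 d (adjusted p = 0.000568).

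Of the other YAP and TEAD genes (28 listed, 15 tested), 6 were called higher and 1 lower at 3 d, 0 higher and 2 lower at 6 h, and 1 higher and 0 lower at 24 h. Among all genes tested, 13.9% were called higher and 15.6% lower at 3 d, 12.2% and 16.8% at 6 h, and 2.63% and 2.31% at 24 h. Ajuba and F3, 2 of the 6, passed the filter only with the libraries at 3 d, and of the other 13 genes 4 were called higher and 1 lower. The median differences of the 15 were 0.27, -0.16 and -0.08 (log2) at 3 d, 6 h and 24 h. For the 13 that did not need the 3 d libraries to pass the filter, the median at 3 d was 0.15. At 3 d Areg, the EGF receptor ligand amphiregulin, rose from 39.3 ± 4.66 to 136 ± 18.1 CPM (log2 1.79 ± 0.20, adjusted p = 1.77e-06). Ajuba, a LIM protein that inhibits LATS kinases, rose from 1.31 ± 0.239 to 4.36 ± 0.450 CPM (log2 1.74 ± 0.27, adjusted p = 5.99e-05). Amotl2, which binds YAP, rose from 6.53 ± 4.14 to 19.5 ± 2.57 CPM (log2 1.58 ± 0.32, adjusted p = 0.000744). At 6 h Lats1, a kinase that restrains YAP, fell (log2 -0.88 ± 0.13, adjusted p = 3.20e-05), as did Nt5e, the surface enzyme CD73 (log2 -1.56 ± 0.41, adjusted p = 0.00679).

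**Figure D4:**
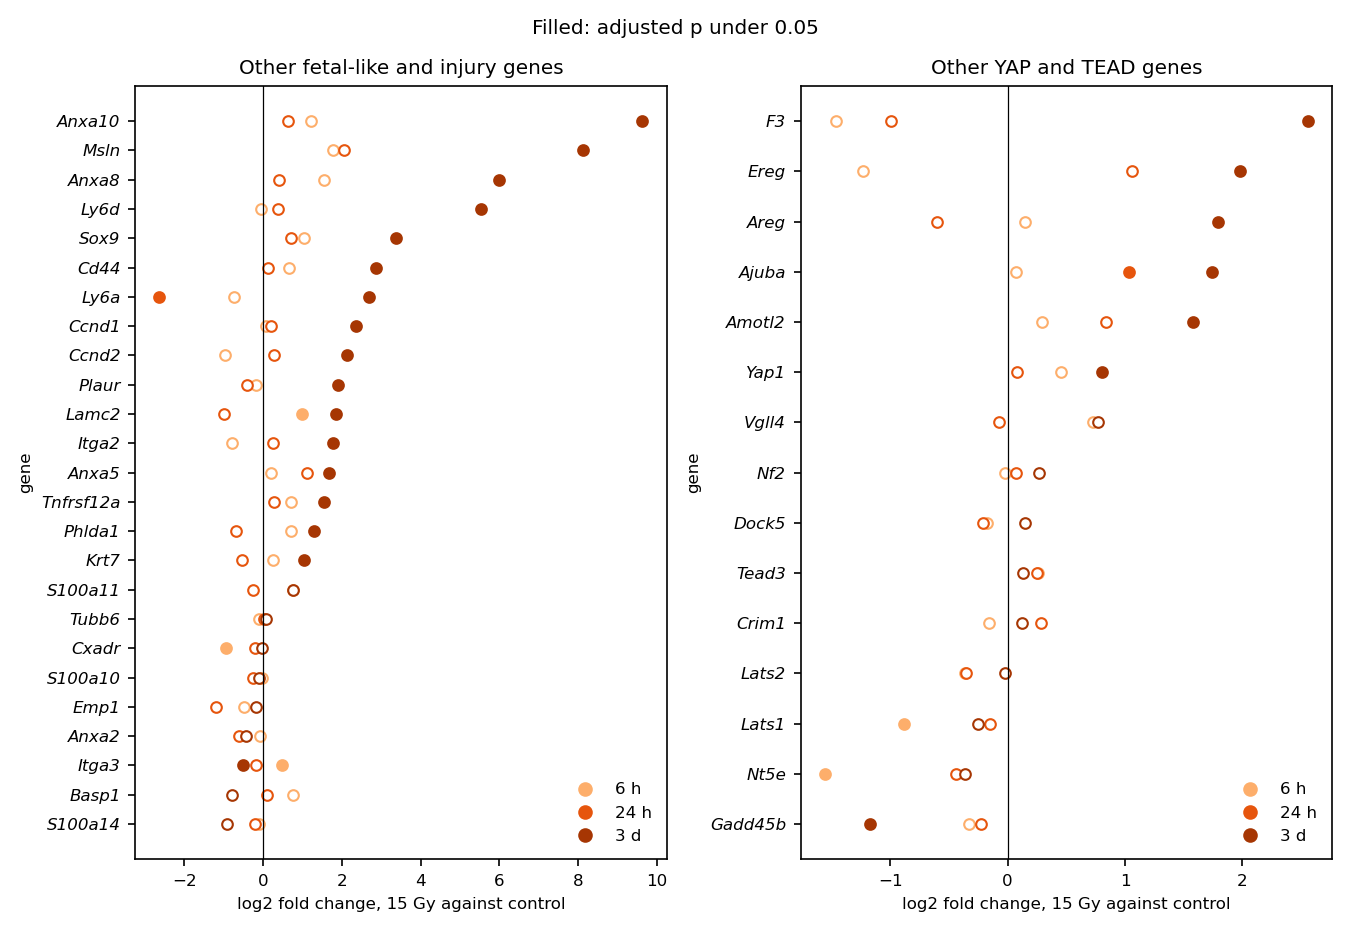
Log2 fold change against control (x axis) of the listed fetal-like and injury genes (left, 25 tested) and YAP and TEAD genes (right, 15 tested), 1 row a gene, at 6 h, 24 h and 3 d after 15 Gy. Filled points have an adjusted p under 0.05; at 3 d there are 17 filled points on the left and 7 on the right.

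Relatives of the 9 genes by family were counted from lists that share genes with those above: Anxa5, Anxa8, Anxa10 and Krt7 are also among the fetal-like genes, and Areg among the YAP and TEAD genes. Among all genes tested, 13.9% were called higher and 15.6% lower at 3 d. Of 16 other annexins and S100 proteins tested, 5 were called higher and none lower at 3 d, with a median of 0.41 (log2). The 14 that did not need the 3 d libraries to pass the filter had 3 called (Anxa5, Anxa13 and S100a1) and a median of 0.40. Anxa10 went from 0.0353 ± 0.0313 to 28.5 ± 2.16 CPM (adjusted p = 0.000429), Anxa13 from 105 ± 14.3 to 297 ± 96.8 CPM (adjusted p = 0.000566) and Anxa8 from 0.108 ± 0.101 to 6.98 ± 2.43 CPM (adjusted p = 0.00374). Of 5 other keratins, 2 were called higher at 3 d (Krt7, log2 1.04 ± 0.24, and Krt23, log2 1.26 ± 0.33) and 1 lower (Krt8, log2 -0.74 ± 0.22). Of 7 other metalloproteinases and inhibitors, 2 were called higher and none lower: Mmp7, the Paneth cell matrilysin, rose from 4.08 ± 0.400 to 60.8 ± 35.8 CPM (adjusted p = 0.00118), and Adam10, a sheddase, rose by 0.50 ± 0.18 (log2, adjusted p = 0.0395). Of 3 genes tested around interleukin 33 (10 listed), Areg and Myd88 were called higher. The other 4 CCN genes, relatives of Cyr61 and Ctgf, were all below the filter.

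Markers of other states and cell types at 3 d are given here because bulk RNA cannot tell fewer cells of a type from less RNA per cell. Among all genes tested, 13.9% were called higher and 15.6% lower at 3 d. Of 10 crypt stem and progenitor genes tested (16 listed), 7 were called higher and none lower, led by Sox9, Bmi1 and Prom1, and the list summed to 194 to 239 CPM against 68.3 to 83.2 CPM in control. Lgr5, the marker of crypt base stem cells, was below the filter at 0.396 ± 0.0326 against 0.227 ± 0.118 CPM. Of 20 enterocyte genes, 10 were called lower, led by Lct, Slc5a1 and Sis, and 1 higher, with a sum of 109772 to 154926 CPM against 146409 to 176847 CPM. Of 10 pan-epithelial genes, 3 were called lower and 1 higher.

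Nonepithelial markers moved in part at 3 d, where 13.9% of all genes tested were called higher and 15.6% lower. The 9 endothelial genes summed to 9.93 to 22.4 CPM at 3 d against 2.49 to 4.50 CPM in control, and 1 of 2 tested (Tie1) was called higher, and Tie1 passed the filter only with the 3 d libraries. Of the endothelial genes Pecam1 and Cdh5, both below the filter, Pecam1 was at 1.79, 3.45 and 1.89 CPM against 1.16, 0.910 and 0.850 CPM, above every control library, and Cdh5 at 0.330 ± 0.252 against 0.360 ± 0.0995 CPM. The 16 fibroblast genes summed to 218 to 265 CPM against 318 to 337 CPM. Of 6 tested, Col3a1 was called higher and Fbln1 lower, with a median of 1.31 (log2) over the 6, and Fbln1 alone made 227 ± 18.8 CPM of the sum, with Lum at 0 in both groups. Col1a1 and Dcn, defining genes of fibroblasts, were at 0.973 ± 0.761 and 1.37 ± 0.823 CPM against 0.278 ± 0.206 and 0.246 ± 0.370 CPM. The 6 mesothelial genes summed to 6.82 to 12.2 CPM against 2.18 to 2.49 CPM, and 1 of 2 tested (Msln, which passed the filter only with the 3 d libraries) was called higher, while Upk3b was at 0.111 ± 0.192 CPM and Wt1 at 0 counts. The 11 macrophage and neutrophil genes summed to 14.5 to 18.1 CPM against 7.92 to 12.5 CPM, with 2 of 4 tested called higher. The 9 smooth muscle genes summed to 2.42 to 9.93 CPM against 1.89 to 4.86 CPM, with none of 6 called and a median of 2.20 (log2), and the 16 exocrine pancreas genes to 4.70 to 7.20 CPM against 5.20 to 8.38 CPM, with none of 15 called. Of 4 pancreatic duct genes tested, Krt7 alone was called higher. Dbp, the clock gene, measured 0.728 to 4.20 CPM at 3 d, 0.483 to 24.4 CPM at 24 h and 85.5 to 94.3 CPM in control. The part of these markers in the rises at 3 d was not tested.

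The genes closest in pattern to each of the 8 tested genes were found by the mean absolute difference of centred log2 CPM over the 9 group means, among 9428 genes. Il33 was most like Akap13 (0.10), Mmp14 like Cryzl2 (0.17), Krt19 like Bace2 (0.21), Anxa3 like Mfge8 (0.21) and S100a6 like H1f2 (0.21). Less close were Cyr61 with Anxa5 (0.35), Clu with Prss12 (0.59) and Anxa1 with Pla2g5 (0.63). Second in order were Pdzk1ip1 for Il33, Zfp593 for Mmp14, Mpzl2 for Krt19, Car9 for Anxa3, Tle3 for S100a6, Fam171a1 for Cyr61, Slco3a1 for Clu and Ccnd2 for Anxa1. Between the genes themselves, S100a6 and Krt19 were closest (0.43), and Anxa1 and Il33 were farthest apart (1.45). Prss12 measured 1.99 ± 1.03 CPM in control and 19.4 ± 4.03 CPM at 3 d after 15 Gy, and Pla2g5 measured 0.25 ± 0.172 and 12.3 ± 1.81 CPM. The genes nearest to S100a6 did not share its higher level at 3 d. H1f2 measured 151 ± 73.8 CPM in control and 152 ± 31.4 CPM at 3 d, and Tle3 85.7 ± 18.4 and 73.8 ± 29.7 CPM. All the other nearest genes had a higher mean at 3 d than in control. These are descriptions of 9 groups of 3 libraries each.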

How the data were processed

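RNA of 27 intestinal libraries was analysed. The counts are whole numbers per gene and library, produced by the authors and used as deposited. The FPKM values were also computed by the authors, per the file headers, with 0.0001 in place of 0. The submitters' processing notes list StringTie 1.3.0, HISAT2 2.0, Bowtie 0.12.2 and mouse build mm8. Positions are given as GRCm38, because GENCODE vM21 places 51957 of 55141 shared identifiers at identical ends. How reads were assigned to genes and by strand is not given in the sources used here. Overlapping annotated genes of Anxa1, Anxa3 and Ctgf held 5, 2 and 5 counts in all.

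The main test was edgeR 4.0.16 under R 4.3.3: TMM scaling, 1 quasi-likelihood fit of the counts of all libraries with a coefficient per group, and Benjamini-Hochberg adjustment within each of 14 comparisons. Alternatives were no filter, median-ratio scaling, DESeq2 1.42.0, the replicate number as a block, limma 3.58.1 on log2(FPKM + 1), the compared groups alone, no libraries of 6 Gy at 24 h, and each library left out. The 9 genes and all lists were chosen with earlier results of these data known. Up to 3 called genes per list with the smallest adjusted p were named, plus the 2 nearest in pattern to each gene. Genes named outside that rule were chosen after their values were seen. Replicates differed by more than counting error (chi-square per degree of freedom 143 to 1266), and 23888 genes had no count.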

Additional observations from a re-analysis of the deposited data

How the results depend on the processing

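Of 31 gene results called in the 14 comparisons, 16 stayed past the threshold in every alternative, and over 400 alternatives of these results 68 were no longer called and 0 changed sign. The number of the 8 genes called at 3 d after 15 Gy was 6 to 8 in every alternative. For 15 Gy at 6 h against control it was 3 with no filter, Ctgf among them, 0 by limma, 1 with the groups fitted alone and 0 to 2 with a library left out. For 6 Gy at 6 h it was 4 by limma, 3 with the groups alone and 3 to 4 with a library left out. For 15 Gy against 6 Gy at 6 h it was 4 with no filter, Ctgf among them, 2 with the groups alone and 2 to 3 with a library left out. For 6 Gy at 24 h it was 1 with no filter, 4 by limma and 1 to 3 with a library left out. For CBLB502 alone it was 1 by DESeq2 and 0 to 1 with a library left out. For 15 Gy with CBLB502 against control it was 0 with no filter, 1 by limma, 1 without the 6 libraries of 6 Gy at 24 h and 0 to 2 with a library left out. For 6 Gy with CBLB502 it was 2 by DESeq2, 4 by limma and 1 to 2 with a library left out. For 24 h against 6 h after 15 Gy it was 3 with no filter, Ctgf among them, 1 by limma, 1 with the groups alone and 1 to 2 with a library left out. The cause was not tested.

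Values that turned with a library left out were Cyr61 in 6 Gy with CBLB502 against control (-0.14 to 0.92, the lowest without control replicate 3) and Clu in 15 Gy against 6 Gy at 6 h (-1.84 to 0.66, with 0.66 without 6 Gy replicate 1, 0.23 and 0.19 without 15 Gy replicate 1 and 3), none of them called in the full fit. A further 66 results were called in no alternative, and 29 of these changed sign in some.

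The replicate numbers do not pair the libraries: deviations of libraries with the same number correlated at -0.26 to 0.25, and in no comparison did every pair exceed 0.1. With the replicate number as a block, 7 of the 8 genes were called at 3 d after 15 Gy, 2 at 6 h and 0 at 24 h, the same counts as without it, and no other count of genes called moved. With 3 libraries a group, a p that misses the threshold does not show that levels were alike, and low genes such as Anxa1 and Ctgf rest on few counts outside 1 or 2 groups.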
